A study of Homo sapiens with 6 samples.

Results

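Transcripts for folate entry, storage and mitochondrial import were examined in K562, an established human erythroleukaemia line, as parental cells sensitive to methotrexate (MTX) and as cells selected to grow in this antifolate. The 7 genes were the plasma membrane carriers SLC19A1 and SLC46A1, the folate receptors FOLR1 and FOLR2, the enzymes FPGS and GGH, which lengthen and shorten the glutamate tail of folates, and the mitochondrial carrier SLC25A32. They were taken by function, and every probe set that the platform annotation gives to 1 of them alone was kept, which made 18 of the 54675 probe sets of the array. Each group had 3 arrays, and parental and resistant cells share the same line of origin. The resistant line was obtained by stepwise exposure to MTX and is labelled as resistant to 10e-5 M, in the label's spelling. Taken literally, that is higher than the concentration the study's methods give for these cells. The sources used here do not say whether the resistant line is 1 clone. Parental cells grew in Ham's F12 and resistant cells in a medium lacking glycine, hypoxanthine and thymidine with dialysed serum, and effects of MTX resistance and of medium cannot be told apart. Nothing in the labels states that replicates were separate cultures, so p-values here measure only the spread between these samples.

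Folates and MTX carry a negative charge and cross membranes poorly, so cells depend on carriers. SLC19A1, the reduced folate carrier, is the main entry route of MTX in most cells and exchanges folates for organic anions. SLC46A1 couples folate entry to protons and works best in acid surroundings, and the folate receptors bind folic acid tightly at the cell surface and bring it in by endocytosis. Inside the cell, folylpolyglutamate synthase (FPGS) adds glutamates, which keeps folates and MTX in the cell, and gamma-glutamyl hydrolase (GGH) removes them in lysosomes. Loss of entry through SLC19A1 and low polyglutamation are known routes to MTX resistance in leukaemia.

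Promoter windows were available in the RefSeq table for 3 of the 7 genes. Those of SLC46A1 and FPGS are shown because these genes held, respectively, the largest difference toward resistant cells and lower mean signal there, neither past the test. Each window is the 250 bases before an annotated start, 5′ to 3′, on assembly GRCh38.p14: SLC46A1 lies on the minus strand at chr17:28406213-28406462, and the most upstream of the 3 FPGS windows on the plus strand at chr9:127802608-127802857. Capitals mark motif matches on either strand among the GC box GGGCGG, the CCAAT box CCAAT and the E box CACGTG.
SLC46A1: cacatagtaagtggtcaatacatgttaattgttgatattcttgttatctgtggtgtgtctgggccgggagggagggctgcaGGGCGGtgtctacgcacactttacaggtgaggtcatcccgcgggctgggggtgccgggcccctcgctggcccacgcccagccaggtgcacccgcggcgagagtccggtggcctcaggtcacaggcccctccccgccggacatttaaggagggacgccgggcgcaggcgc
FPGS: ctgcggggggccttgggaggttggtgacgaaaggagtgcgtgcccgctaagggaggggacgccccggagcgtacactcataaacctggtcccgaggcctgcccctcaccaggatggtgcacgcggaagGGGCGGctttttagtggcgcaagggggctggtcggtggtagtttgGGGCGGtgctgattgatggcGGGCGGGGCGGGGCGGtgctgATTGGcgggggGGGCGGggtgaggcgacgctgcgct
The SLC46A1 window held 1 GC box and no other of these motifs. The FPGS window shown held 6 GC boxes, some overlapping each other, and 1 CCAAT box, read as its reverse complement ATTGG. The FPGS windows not shown differed: the next held 8 GC boxes and 2 CCAAT boxes. The most downstream held 1 E box and neither of the other motifs. Among 35116 windows of that length, 42.6% held a GC box, 32% a CCAAT box and 6.34% an E box, which was in neither window shown. These matches are a description of letters and say nothing about binding.

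Signals are given as multiples of the median of their array, which was 10.2 to 14.3 in the deposited values. Since probe sets differ in how strongly they bind, levels of different probe sets are not set against each other. Over all probe sets, which do not count as replicates, the Spearman correlation of parental 2 with parental 3 was 0.882, those of parental 1 with either were 0.849 to 0.856, and resistant arrays correlated at 0.846 to 0.869 among themselves. Of 10 erythroid markers, 7 had a probe set naming that gene alone and all of these were tested, with the zeta globin HBZ at 551 to 714 array medians and the transferrin receptor TFRC at 230.1 to 306. The embryonic globin HBE1 was the 1 erythroid marker called, from 561.7 to 670 array medians in parental arrays to 37.6 to 73.8 in resistant arrays.

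None of the 6 genes that could be tested passed. limma was fitted over 26692 probe sets with an average signal of at least 1 array median, and calls needed a fold of 2 or more with a Benjamini-Hochberg adjusted p under 0.05. Of the 18 probe sets 14 were tested and 0 were called, against 2.33% of all tested probe sets, 1.2% higher and 1.14% lower in resistant arrays. The test that the study's methods name also called 0. Over all 26692 it called only 10 higher and 2 lower, so that 0 is uninformative about these genes. At an unadjusted limma p under 0.05 there were 4 of the 14, or 28.6%, where the share of all tested probe sets was 18.7%. Of these 4, 2 were higher, against 9.71% of all, and 2 lower, against 8.98%. For 3 of the 14, a share of 21.4%, the 3 arrays of one group lay beyond the 3 of the other, as they did for 27.2% of all tested probe sets. Of these 3, 2 were higher, against 14.9%, and 1 lower, against 12.3%. With 14 probe sets these shares rest on 0 calls, 3 separated groups and 4 unadjusted p-values, and none is read as differing from the whole array. The median log2 difference of the 14 was 0.09, against 0.03 over all tested probe sets, and 10 of the 14 had a 95% interval that includes 0. The 3 probe sets whose groups lay apart belonged to SLC46A1, SLC25A32 and FOLR1, the last toward lower signal.

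**Figure D1:**
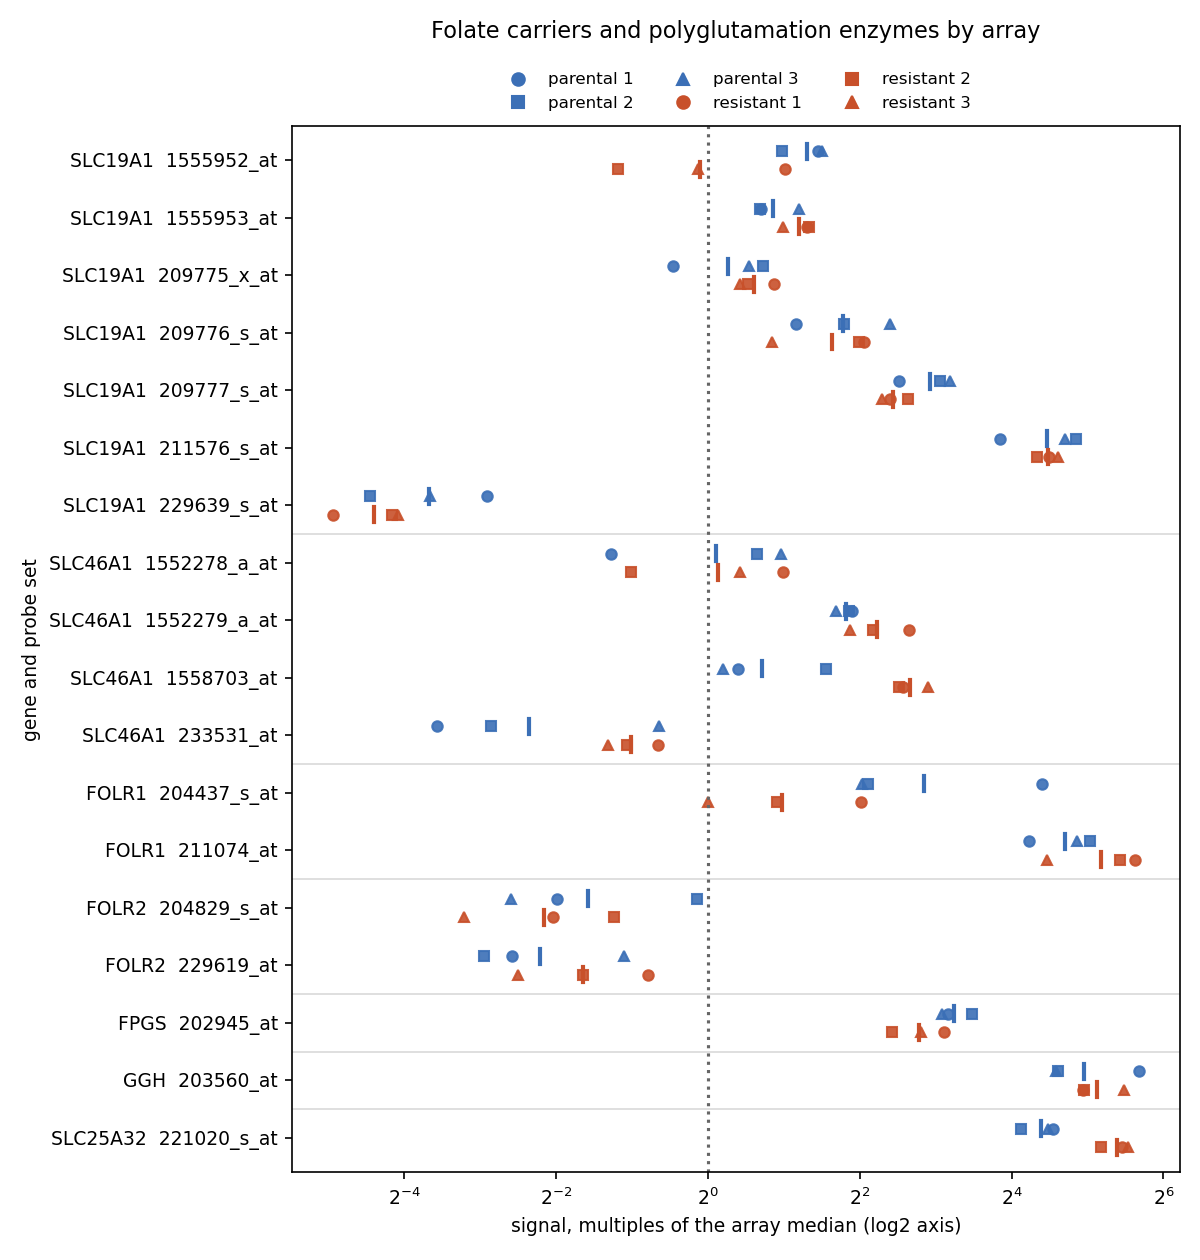
Signal on each of the 6 arrays, as multiples of the array median (log2 axis), for the 18 probe sets of the 7 genes, with vertical marks at group means of log2 values (parental blue, resistant red) and a dotted line at the array median. SLC46A1 1558703_at and SLC25A32 lie to the right in resistant arrays without overlap, both FOLR2 probe sets lie left of the dotted line on every array, and most other rows overlap.

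The principal MTX carrier, SLC19A1, did not show 1 direction. Its representative probe set, the tested one with the largest mean log2 signal, was 211576_s_at, which read 14.3, 28.8 and 26.03 array medians on parental arrays 1 to 3, and the resistant arrays 1 to 3 read 22.6, 20.2 and 24.5. The lowest value was that of parental 1, and the 3 resistant values lay inside the parental range. The log2 difference was 0.02 (SE 0.314, 95% interval -0.73 to 0.77), an interval that runs from 0.601 to 1.71 times the parental level. Its sign turned under quantile normalization and with the values as deposited. Without parental 1 the difference was -0.29.

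The other SLC19A1 probe sets spread to both sides. On 1555952_at the parental arrays read 2.74, 1.97 and 2.83 array medians and the resistant arrays 2.02, 0.44 and 0.912. Here resistant 2 and 3 lay below every parental array while resistant 1 lay among them, and the log2 difference of -1.41 (SE 0.545) did not pass (limma adjusted p = 0.234). For 209777_s_at the parental arrays had 5.73, 8.30 and 9.12 and the resistant arrays 5.29, 6.19 and 4.91, a difference of -0.48 (SE 0.257, adjusted p = 0.376). The remaining tested probe sets, 1555953_at, 209775_x_at and 209776_s_at, had log2 differences of 0.34, 0.34 and -0.15, and those of the last 2 changed sign when certain arrays were left out. 229639_s_at stayed under 0.133 array medians on all arrays and was not tested. Of the 6 tested probe sets, 3 pointed up and 3 down. Over the 15 pairs of these probe sets, Pearson correlations across the 6 arrays ran from -0.43 to 0.83 with a median of 0.37, and 11 were positive. Of the 7 SLC19A1 probe sets, 5 have identifiers ending in _s_at or _x_at, classes that can match other transcripts.

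The proton-coupled carrier SLC46A1 held the largest difference toward resistant cells, by 1 of its 4 probe sets. On 1558703_at the parental arrays read 1.31, 2.94 and 1.15 array medians and the resistant arrays 5.93, 5.74 and 7.49. All 3 resistant values exceeded the highest parental value, that of parental 2. The mean went from 1.80 ± 0.989 to 6.38 ± 0.962 array medians (SD, n = 3), a 3.86-fold difference with a 95% interval of 2.02 to 7.37, and the probe set did not pass over all probe sets (limma adjusted p = 0.0641). It passed in 5 of 17 alternatives, among them the fit without parental 2, where the adjusted p was 0.0294 and the log2 difference 2.37 in place of 1.95. Over all 17 alternatives its adjusted p ran from 0.0180 to 0.350 and its difference stayed positive.

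The other SLC46A1 probe sets gave smaller differences, none past the test. The representative, 1552279_a_at, read 3.72, 3.63 and 3.21 array medians on parental arrays, and 6.29, 4.50 and 3.68 on resistant ones. Resistant 1 and 2 were above all parental arrays and resistant 3 was among them, and the log2 difference was 0.42 (SE 0.262, 95% interval -0.21 to 1.05, adjusted p = 0.435). 1552278_a_at ranged from 0.413 to 1.94 in parental and from 0.496 to 1.98 in resistant arrays, and its log2 difference of 0.02 changed sign under several alternatives. 233531_at stayed below the array median everywhere, at 0.0839 to 0.638 array medians, and was not tested. The 3 tested probe sets correlated across the 6 arrays at 0.08 to 0.59. No SLC46A1 identifier belongs to the _s_at or _x_at classes. Why the probe sets of this gene differ was not tested.

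**Figure D2:**
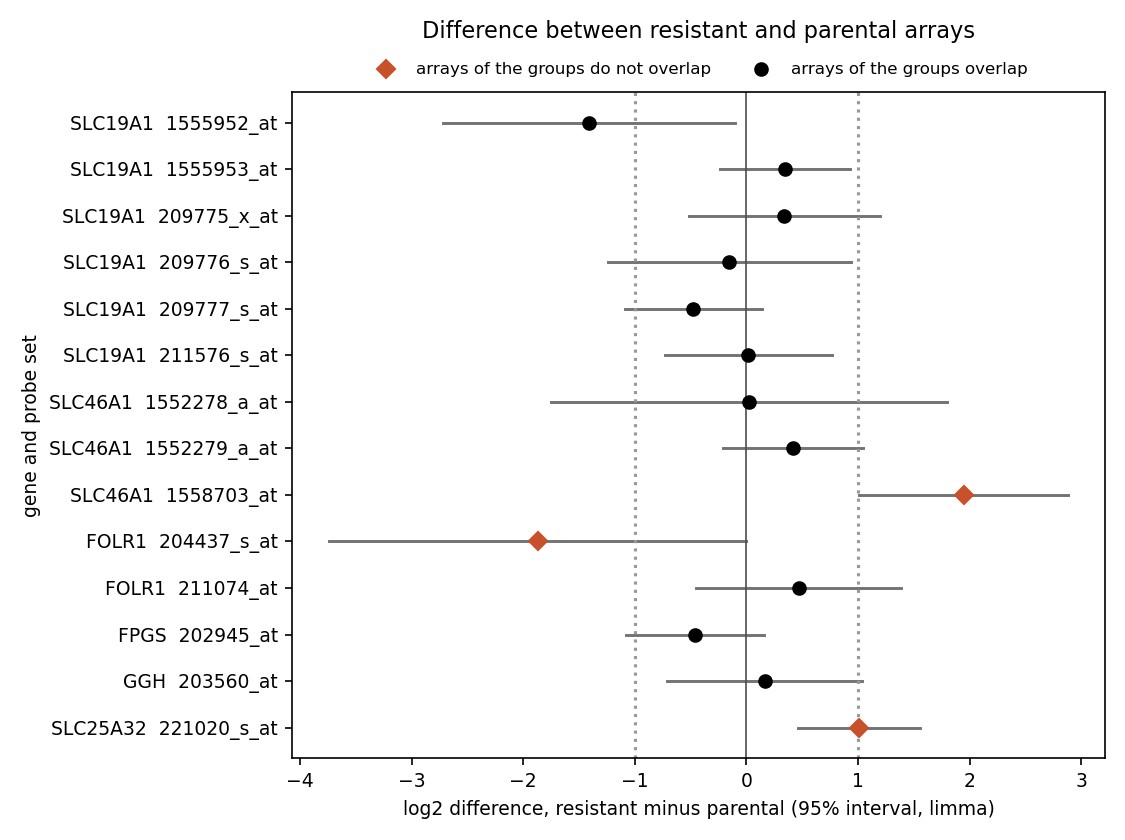
Log2 difference of resistant minus parental arrays (points) with 95% intervals from limma (lines) for the 14 tested probe sets, with dotted lines at a fold of 2 in either direction; red diamonds mark probe sets whose arrays do not overlap between groups. SLC46A1 1558703_at, at 1.95, stands farthest to the right and FOLR1 204437_s_at, at -1.87, farthest to the left, and 10 of the 14 intervals include 0.

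The probe sets of FOLR1, the folate receptor alpha of epithelia, pointed in opposite directions. On 204437_s_at the parental arrays read 21.2, 4.32 and 4.09 array medians and the resistant arrays 4.06, 1.89 and 1.00. The groups did not overlap, but parental 3 and resistant 1 were nearly equal and parental 1 stood far above the rest. The log2 difference was -1.87 (SE 0.781, 95% interval -3.74 to -0.000715) and did not pass (limma adjusted p = 0.267). Without parental 1 it was -1.09 (adjusted p = 0.339). On 211074_at the parental arrays read 18.8, 32.7 and 29.0 and the resistant arrays 49.6, 42.9 and 22.2. In this probe set parental 1 was the lowest array, resistant 1 and 2 exceeded all parental arrays and resistant 3 lay within their range, with a log2 difference of 0.47 (SE 0.385, adjusted p = 0.556). Across the 6 arrays the log2 signals of the 2 probe sets correlated at -0.32.

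Most epithelial markers followed the first of them in parental 1. Summed over the 7 epithelial markers, signal was 636 array medians on parental 1, 336 and 269 on parental 2 and 3, and 221 to 306 on resistant arrays, and 5 of the 7 were higher in parental 1 than in both other parental arrays. Most of each sum came from the keratins KRT18, KRT8 and KRT19, which read 352, 166 and 83.7 on parental 1. KRT7 went the other way, with 2.36 on parental 1 against 3.20 and 3.18 on parental 2 and 3. The adhesion molecule CDH1 had 21.8 array medians on parental 1, against 2.01 and 0.717 on the other parental arrays and at most 0.373 on resistant ones. EPCAM had 9.53 in parental 1 against 1.19 and 0.307 in the others, and CLDN4 stayed under the median on all arrays. The part of these markers in the FOLR1 values was not tested.

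**Figure D3:**
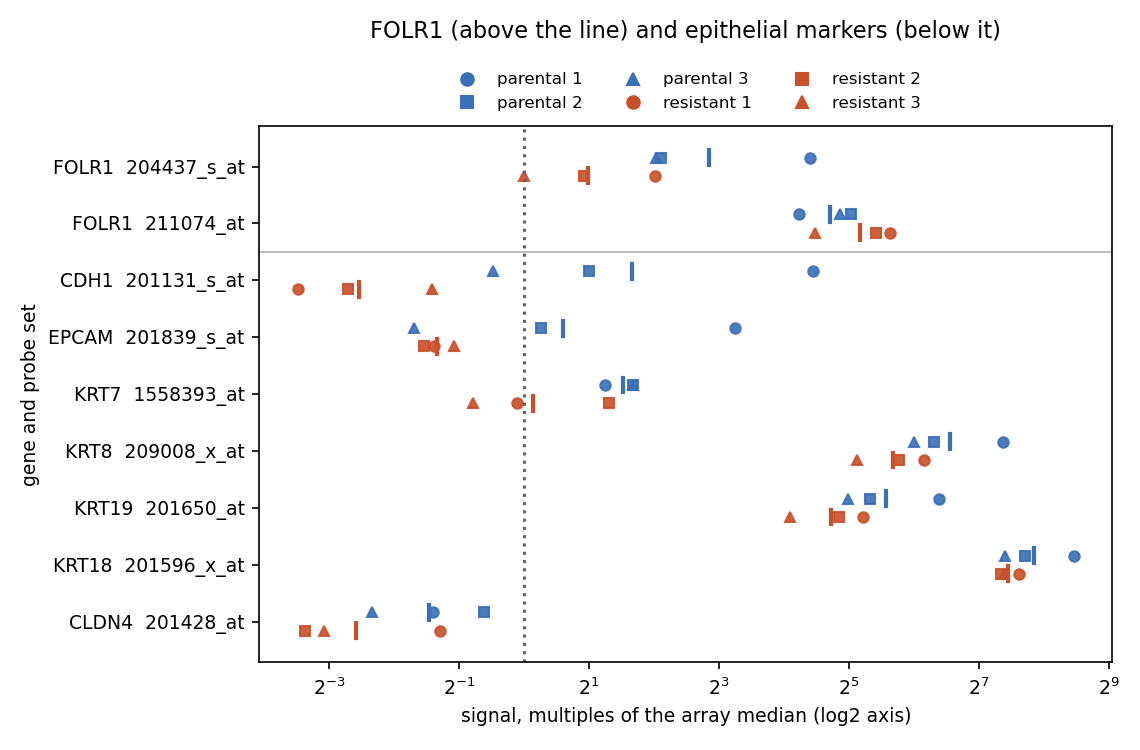
Signal per array, as multiples of the array median (log2 axis), for the 2 FOLR1 probe sets (above the line) and the 7 epithelial markers (below it), with marks at group means of log2 values. Parental 1 (blue circle) is the highest array for FOLR1 204437_s_at, CDH1, EPCAM and the keratins KRT8, KRT18 and KRT19, and the lowest for FOLR1 211074_at.

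FOLR2, the folate receptor beta known from macrophages, stayed below the array median in both groups. 204829_s_at ranged from 0.165 to 0.908 array medians in parental and from 0.108 to 0.424 in resistant arrays, and 229619_at from 0.13 to 0.465 and from 0.176 to 0.577. Neither was tested, and at this signal a difference could not be shown. The monocyte marker CD14 was at 0.0813 to 0.167 array medians on the 6 arrays and the macrophage marker MRC1 at 0.152 to 0.813. Summed over 6 monocyte and macrophage markers, signal was 44.9 to 65.7 in parental and 12.3 to 26.7 in resistant arrays, of which lysozyme, LYZ, gave 92.8 to 96% on parental and 79.9 to 85.4% on resistant arrays. Such sums over a marker list are given only to set arrays side by side. In the RefSeq order of protein-coding genes FOLR1 lies between FOLR3 and FOLR2, and FOLR3, named here for its place, read 0.643 to 1.20 in parental and 0.632 to 1.54 in resistant arrays (limma adjusted p = 0.969).

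SLC25A32, which carries folate across the inner mitochondrial membrane, was higher in each resistant array. On its probe set, 221020_s_at, the parental arrays read 23.4, 17.4 and 22.3 array medians and the resistant arrays 44.1, 36.3 and 46.2. The lowest resistant array was above the highest parental array by a clear margin. The mean went from 21.02 ± 3.18 to 42.2 ± 5.25 array medians (SD, n = 3), a 2.01-fold difference with a 95% interval of 1.38 to 2.94, and the limma adjusted p was 0.0857. Among the 14 probe sets it had the smallest SE, 0.229 on the log2 scale. It passed in 2 of 16 alternatives, the stricter filter at 2 array medians and the intensity trend with a robust prior, and its adjusted p ran from 0.0226 to 0.319. With a pseudocount of 1 the adjusted p was 0.0360, but the log2 difference of 0.97 was under the fold needed. Its fold lies at the limit set for a call. The gene has 1 probe set, of the _s_at class.

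**Figure D4:**
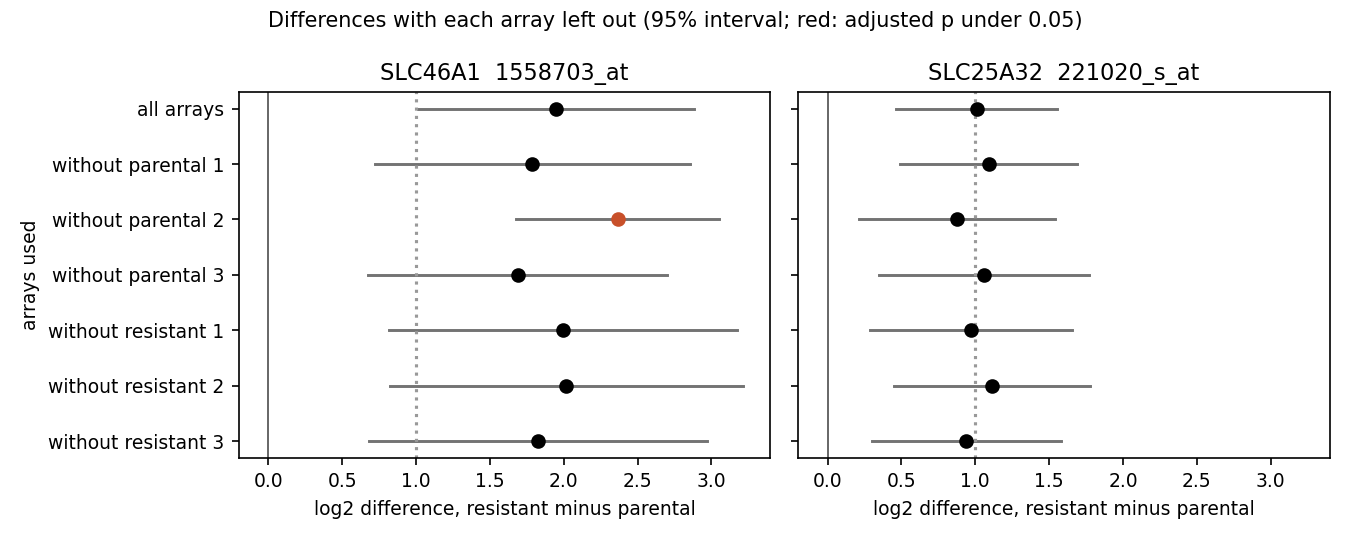
Log2 difference of resistant minus parental arrays with 95% intervals (limma) for SLC46A1 1558703_at and SLC25A32 221020_s_at, with all arrays and with each array left out in turn; the dotted line is a fold of 2. All intervals lie above 0, SLC46A1 ranges from 1.69 to 2.37 and SLC25A32 from 0.88 to 1.11, and the single red point is SLC46A1 without parental 2.

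Of the polyglutamation enzymes, FPGS had lower mean signal in resistant cells and GGH differed little, and neither passed. For FPGS the parental arrays read 8.99, 11.2 and 8.48 array medians and the resistant arrays 8.60, 5.38 and 6.99. Resistant 2 and 3 were below all parental arrays, and resistant 1 overlapped with them. The mean was 9.54 ± 1.42 against 6.99 ± 1.61 array medians (SD, n = 3), a log2 difference of -0.46 (SE 0.258, 95% interval -1.08 to 0.15, limma adjusted p = 0.388), an interval that runs from 0.472 to 1.11 times the parental level. The difference was negative in all 17 alternatives, from -0.66 to -0.29. For GGH the parental arrays read 51.4, 24.4 and 24.1 and the resistant arrays 30.8, 30.9 and 44.8. Parental 1 was the highest of all arrays and parental 2 and 3 the lowest. The log2 difference of GGH was 0.16 (SE 0.366, adjusted p = 0.846), and its sign turned with the values as deposited. Without parental 1 it was 0.53 (adjusted p = 0.304).

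As the enzymes act in opposite directions, the log2 of FPGS minus that of GGH was taken on each array, and only its difference between groups was read. The parental arrays had -2.52, -1.13 and -1.51 and the resistant arrays -1.84, -2.52 and -2.68. Parental 1 lay with the lower resistant arrays, and parental 2 and 3 above all of them. The group means were -1.72 ± 0.717 and -2.35 ± 0.447 (SD, n = 3), a difference of -0.63. An exact permutation test, two-sided, gave p = 0.2, and as 3 against 3 cannot go below 0.1 it could not decide whether the groups differ. Without parental 1 the difference was -1.03, and without parental 2 it was -0.34.

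**Figure D5:**
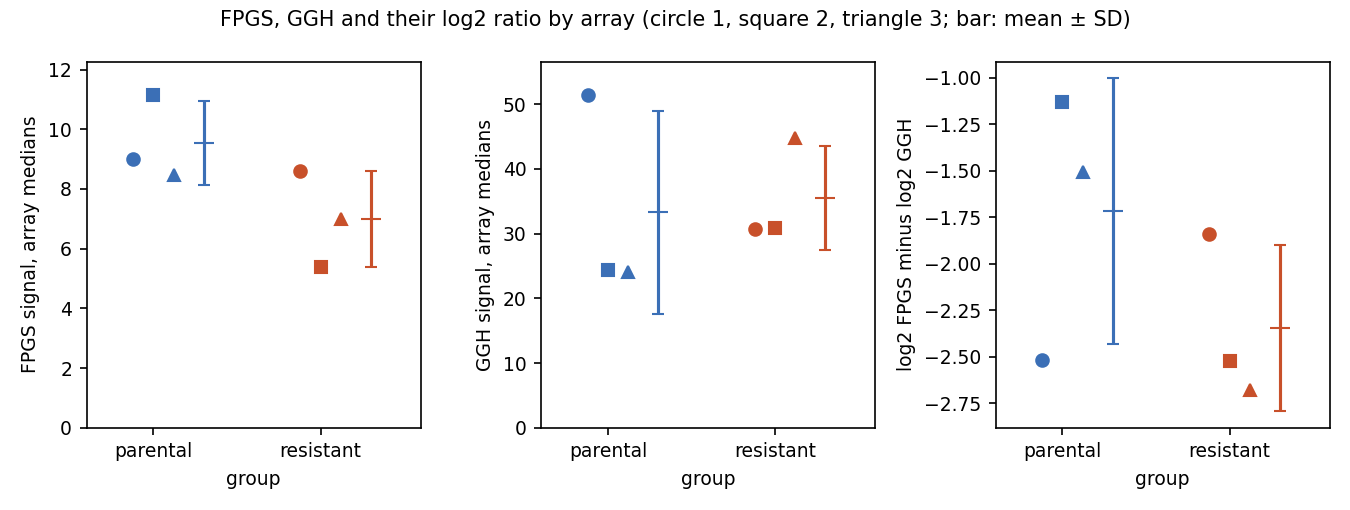
Signal of FPGS and GGH in multiples of the array median and the log2 of FPGS minus that of GGH on each array (circles array 1, squares array 2, triangles array 3 of each group), with bars for the mean ± SD of 3 arrays. In the right panel parental 1, at -2.52, lies among the resistant arrays, and parental 2 and 3 lie above them.

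For each gene with a tested probe set, the genes whose representative probe set followed it most closely over the 6 arrays were found among 11809 others, by Pearson correlation of log2 signals. These are the highest of 11809 values, each over 6 points that share the scaling of their arrays, and they are given as a description. SLC25A32 was followed most closely by SOX4 (r = 0.996), a transcription factor of progenitor cells, and BCL11A (0.995), which represses fetal globin. On SOX4 the parental arrays read 8.31, 5.504 and 8.73 array medians and the resistant arrays 28.0, 19.4 and 26.6, and, as for SLC25A32, array 2 was the lowest of each group. GGH was followed by the growth factor ANGPT1 (0.991) and the kinase CDK12 (0.987), which share its high signal in parental 1 and resistant 3. FPGS was nearest to the corepressor TLE3 (0.996) and the actin crosslinker ACTN4 (0.989). SLC19A1 was nearest to LDAH (0.996) and TMEM8B (0.995), both lowest in parental 1. FOLR1, by 211074_at, was nearest to PCSK4 (0.998) and TIMM44 (0.994), and SLC46A1, by 1552279_a_at, to ZNF653 (0.995) and MRPS25 (0.994).

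Among other genes of folate metabolism, GLDC was the 1 gene that passed by its representative probe set, from parental levels in the range of background. It splits glycine in mitochondria, as part of a system that passes a carbon to folate. Of 23 folate-dependent enzymes 20 had a probe set and 17 were tested, with 1 called higher and 0 lower, where 2.77% of 11810 genes were called in either direction. At an unadjusted limma p under 0.05 there were 7 of the 17, or 41.2%, against 20% of all genes, with 6 higher and 1 lower in resistant cells. Over all tested probe sets, 9.71% were higher and 8.98% lower at that threshold. Shares by direction over genes were not taken, and whether the list differs from all genes was not tested. Their median log2 difference was 0.13, against 0.02 over all tested genes, and 12 of the 17 were positive. For GLDC the parental arrays read 0.413, 0.733 and 0.26 array medians and the resistant arrays 14.9, 13.3 and 16.04 (limma adjusted p = 0.0031). All 3 parental arrays lay under the array median, so the probe set passed the filter on low values only through the resistant arrays, and its fold is uncertain. The log2 difference was 5.10 as fitted and 3.43 with a pseudocount of 1 array median, and the call was lost with the test that the study's methods name (adjusted p = 0.245). ALDH1L2, the mitochondrial 10-formyltetrahydrofolate dehydrogenase, read 4.69, 5.44 and 4.35 on parental and 9.50, 8.53 and 11.9 on resistant arrays. Its groups did not overlap, and its 2.06-fold difference, of the same size as that of SLC25A32, did not pass (adjusted p = 0.0806). These values are of the representative alone, and of the 3 tested probe sets of ALDH1L2 0 were called.

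The relatives of these carriers and receptors gave no call. Of 6 relatives, 5 had a probe set and 3 were tested, with 0 called by limma and 0 at an unadjusted p under 0.05. The thiamine carrier SLC19A2, of the same family as SLC19A1, read 21.9, 21.1 and 22.3 array medians on parental and 19.0, 15.96 and 24.6 on resistant arrays (adjusted p = 0.762). SLC46A3, a lysosomal relative of SLC46A1, had 0.231 in parental 1 and 3.07 and 2.35 in parental 2 and 3, against 0.96 to 2.26 in resistant arrays (adjusted p = 0.948). Parental 1 thus set the spread of SLC46A3.

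Of 12 other transporters and hydrolases of folates and antifolates, 6 were tested and 0 were called by their representative probe sets, where 2.77% of all genes were called. At an unadjusted limma p under 0.05 there were 2 of the 6, both lower, against 20% of all genes in either direction. Those were ABCC3, an efflux pump of organic anions that carries MTX, and SLCO2B1, an anion uptake carrier. For ABCC3 the parental arrays read 6.70, 3.49 and 3.11 array medians and the resistant arrays 0.276, 1.78 and 0.118 (adjusted p = 0.134). All resistant arrays lay below all parental arrays, and 2 of the 3 were under the array median, in the range of background, which leaves the size of the difference uncertain. On the log2 scale it was -3.43 as fitted, -1.72 with a pseudocount of 1 array median (adjusted p = 0.0351) and -4.53 without resistant 2 (adjusted p = 0.0393), and it passed in those 2 alternatives. Of its 4 tested probe sets 1 was called, 239217_x_at, with 2.59, 3.05 and 1.80 on parental and 0.374, 0.384 and 0.206 on resistant arrays (adjusted p = 0.0111). Its resistant arrays were all under the array median, so it passed the filter only through the parental arrays, and its call was lost with no filter (adjusted p = 0.0667) and with the methods' test (adjusted p = 0.180). This probe set was chosen after its values were seen, belongs to the _x_at class and adds no support to the values of the other. For SLCO2B1 the parental arrays read 41.7, 8.66 and 8.36 and the resistant arrays 4.21, 2.94 and 1.19 (adjusted p = 0.147). These values are of the representative alone, and of the 3 tested probe sets of SLCO2B1 0 were called. As for FOLR1 204437_s_at, parental 1 was far above the other arrays. The remaining tested genes, the pumps ABCC1, ABCC4, ABCC5 and ABCG2, named after their values were seen, had log2 differences of -0.15, 0.37, 0.39 and -0.05 and did not pass.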

How the data were processed

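Total RNA of 3 parental and 3 resistant K562 samples was hybridised to Affymetrix human whole-genome arrays. The authors made the deposited intensities with MAS5, as linear signals per probe set; its version and a genome build are not given in the sources used here. The scaling by array and parental medians that the methods describe is not in the table, since array medians differ.

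Groups and replicate numbers came from the labels. Intensities were divided by their array's median, floored at 0.01 and taken to log2. The 62 AFFX controls among 54675 probe sets were left out. Tested probe sets averaged at least 1 array median, in place of the control-strength filter of the study, whose error model was not at hand. Folds come from mean log2 values, and SDs are of unlogged levels. The platform annotation gave 1 gene for 41097 probe sets, several for 1801 and none for 11777, and 41043 were updated to RefSeq symbols by gene ID. limma (version 3.58.1, R 4.3.3; lmFit, eBayes, two-sided) was fitted on 26692 probe sets with Benjamini-Hochberg adjustment over them, and was tested on simulated data. Precision is limited by the number of arrays.

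The genes, lists and tests were chosen with earlier results of these data known. Named genes were every probe set of the 7 genes; in each pathway list up to 4 called genes, or those with the smallest adjusted p to make 2; and the 2 genes with the highest correlation with each of the 7 that was tested. Among probe sets that name 1 gene, the tested one with the largest mean log2 signal represented that gene. Lists were described by counts and medians. Among the 17 alternatives were values as deposited, quantile normalization, 75th-percentile scaling, a filter at 2 array medians or none, and pseudocounts of 0.25 or 1. Others were limma with intensity trend and robust prior, an unpaired t-test and a replicate block. Exclusion of _x_at and _s_at probe sets and exclusion of each array completed them. The study's statistics section names an unpaired t-test, which was run here on log2 values without assuming equal variances. The study's array lists came from GeneSpring with an error model over genes, and that procedure was not run.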

Additional observations from a re-analysis of the deposited data

How the results depend on the processing

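The 18 probe sets gave 0 calls in either direction in the main setting. They gave 2 calls higher, SLC46A1 1558703_at and SLC25A32, with the filter at 2 array medians and with the intensity trend, 1 (SLC46A1 1558703_at) with either pseudocount, and 0 to 1 with an array left out; none was called lower under any of the 17 alternatives. Over all probe sets, 319 were called higher and 303 lower, 51.3% higher. With the values as deposited, which moved the median over the array to -0.18 on the log2 scale, 204 were higher, 38.9% of the calls. With the filter at 2 array medians, where 20485 probe sets and 11 of the 18 were tested, 465 were higher and 445 lower. Without a filter there were 97 and 77, with a pseudocount of 0.25 462 and 455, and with a pseudocount of 1 599 and 592. The intensity trend gave 563 and 570, the unpaired t-test 10 and 2, and exclusion of _x_at and _s_at probe sets 204 and 190. Leaving out an array gave 103 to 633 higher and 79 to 447 lower, with 58.6%, 67.2% and 59.8% of the calls higher without parental 1, 2 and 3 and 40% without resistant 1. Folate-dependent enzymes had 2 genes called higher with the filter at 2 array medians and with the intensity trend. They had 0 with the unpaired t-test, where GLDC lost its call (adjusted p = 0.245). ABCC3 239217_x_at lost its call with that test (adjusted p = 0.180) and, by limma, with no filter (adjusted p = 0.0667). The other transporters had 1 called lower with a pseudocount of 1 and 0 to 1 with an array left out, which was ABCC3 without resistant 2.

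Directions turned for 5 of the named probe sets of the 7 genes. SLC19A1 211576_s_at was -0.017 under quantile normalization, -0.18 as deposited and -0.29 to 0.21 with an array left out. SLC46A1 1552278_a_at was -0.024, -0.18 and -0.011 under quantile normalization, as deposited and with a pseudocount of 1, and -0.67 to 0.60 with an array left out. GGH was -0.036 as deposited and -0.022 to 0.53 with an array left out. With an array left out, SLC19A1 209775_x_at ran from -0.025 to 0.57 and 209776_s_at from -0.47 to 0.24. Of the related genes, SLC46A3 was -0.035 as deposited, -0.012 and -0.11 with pseudocounts of 0.25 and 1, and -1.02 to 0.85 with an array left out. The causes were not tested. In all, 308 of 344 recomputed values of 21 named probe sets kept their direction and side of the threshold. The FPGS to GGH difference stayed negative, from -1.03 to -0.34 with an array left out; a second probe set for it could not be tried, as each gene has 1.

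Arrays of the same replicate number did not deviate together: the correlations of their deviations from group means ran from -0.03 to -0.01, 0 of the 6 arrays correlated best with its own number, and the numbers were not taken to pair samples. With a replicate block there were 133 calls higher and 136 lower, and 0 among the 7 genes. Probe sets under the array median, which include both of FOLR2, lie in the range of background and set no limit on a change.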
